A study of Mus musculus with 8 samples.

Results

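The 9 genes described here encode 6 STAT transcription factors (Stat2, Stat3, Stat4, Stat5a, Stat5b and Stat6) and 3 feedback inhibitors of the same pathway (Socs1, Socs3 and Cish). They were taken by gene symbol from the 54752 genes in the count tables of the series. RNA-seq libraries had been made from right cerebral cortex of 8 wild-type (WT) C57BL/6 mice (C57BL/6 J in the methods), adult males, each giving 1 library 3 weeks after the operation. The BCAS group (n = 4) underwent bilateral carotid artery stenosis, in which both common carotid arteries carry a microcoil, the narrower one on the right, so that blood flow to the brain is lowered chronically. The Sham group (n = 4) had the same anaesthesia and exposure of both arteries without coils. The comparison of BCAS with Sham mice asks which of these genes change their transcript level in the cortex under chronic hypoperfusion.

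STAT proteins wait in the cytoplasm until a cytokine receptor with its Janus kinases phosphorylates them, whereupon they pair up, enter the nucleus and switch on genes. Genes of the SOCS family are among those switched on, and their proteins bind receptors or Janus kinases and damp the signal, which closes a negative feedback loop. In the brain the pathway is best known from microglia and reactive astrocytes, and transcript levels do not show how much of a STAT protein is phosphorylated.

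Between 16759364 and 21794435 read pairs were counted on genes per library. Counts were divided by the TMM-scaled library size in units of 1000000 counts (CPM), and a count of 0 allows up to 0.187 CPM, the level of 3 counts in the smallest library, which covers counting error only. All 9 genes passed the filter on low counts and were among the 17136 genes tested with edgeR's quasi-likelihood test, with p-values adjusted by the Benjamini-Hochberg method over all of them. A gene was called where its adjusted p was under 0.05 and its log2 fold change beyond 1 in either direction. Pan-neuronal markers, the excitatory neuron gene Slc17a7 included, were present in every library, as the cortex label implies.

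The genes lie on 5 chromosomes of the mm10 build, and some of them are neighbours, so their positions bear on how reads were assigned. Stat5b (chr11:100780731-100850724, minus strand), Stat5a (chr11:100859351-100885169, plus strand) and Stat3 (chr11:100885098-100939540, minus strand) lie one after another on chromosome 11. Stat3 and Stat5a overlap tail to tail by 72 exon bases, which is 0.756% of the exon bases of Stat3 and 1.01% of those of Stat5a. Stat6 (chr10:127642986-127660957, plus strand) and Stat2 (chr10:128270559-128292849, plus strand) share chromosome 10, and Stat6 overlaps Nab2 on the other strand by 40 exon bases. Stat4 (chr1:51987148-52107189, plus strand) shares 26.7% of its exon bases with Gm28177 on the same strand. Socs1 (chr16:10782240-10785536, minus strand) and Socs3 (chr11:117966079-117970047, minus strand) overlap no other exon. Cish (chr9:107296026-107302784, plus strand) shares 11.5% of its exon bases with Gm17040 and Gm17041 on the other strand. Counting ignored strand, so reads in these overlaps cannot be divided between the genes, and the values of Stat4 and Cish are the most affected by them in exon length. Of all 100-base stretches of the transcripts, 3.44% of those of Stat5a also occur in Stat5b, and 4.79% of those of Stat5b in Stat5a. Stat4 shares 18% with Gm28177 and Cish 6.75% with Gm17040 and Gm17041, whereas Stat2, Stat3, Stat6, Socs1 and Socs3 share none with another gene.

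Promoters were searched because STAT proteins bind known letter patterns in DNA. In the RefSeq table (GRCm38.p6) the 9 genes have 12 promoter windows, and the 250 bases before each start were read for TTCNNNGAA (N is any base), the pattern that STAT dimers bind, for the same letters with 4 bases between TTC and GAA, the form that STAT6 prefers, and for GAAA followed after any 2 bases by a second GAAA, the core of the interferon-stimulated response element that STAT2 with IRF9 binds. Each pattern was searched on both strands. The 3 called genes with a match are shown, 5′ to 3′ along the gene, with the matched letters in capitals. The Stat2 stretch is chr10:128270248-128270497 (plus strand), the Socs1 stretch chr16:10785537-10785786 (minus strand) and the Socs3 stretch, the longest part of its window outside annotated exons, chr11:117969452-117969616 (minus strand).
Stat2: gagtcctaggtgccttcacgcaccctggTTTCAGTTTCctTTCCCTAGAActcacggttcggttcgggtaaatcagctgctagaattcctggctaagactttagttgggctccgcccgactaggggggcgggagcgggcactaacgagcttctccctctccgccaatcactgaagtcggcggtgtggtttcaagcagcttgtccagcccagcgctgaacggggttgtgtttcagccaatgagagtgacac
Socs1: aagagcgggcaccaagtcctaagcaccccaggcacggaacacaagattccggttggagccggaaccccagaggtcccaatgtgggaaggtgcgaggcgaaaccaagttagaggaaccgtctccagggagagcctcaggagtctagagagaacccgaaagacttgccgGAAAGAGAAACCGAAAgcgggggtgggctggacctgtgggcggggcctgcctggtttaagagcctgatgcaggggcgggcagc
Socs3: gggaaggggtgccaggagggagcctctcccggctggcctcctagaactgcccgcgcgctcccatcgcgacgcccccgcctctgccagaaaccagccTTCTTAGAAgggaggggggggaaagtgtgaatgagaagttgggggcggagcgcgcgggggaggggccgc
Stat2 held a reverse-strand match to the response element core, printed as TTTCAGTTTC, from 222 to 213 bases before the start, and TTCCCTAGAA from 210 to 201 bases before it. Socs1 held GAAAGAGAAA and GAAACCGAAA, which overlap each other and together span 83 to 68 bases before its start. Socs3 held TTCTTAGAA, 154 to 146 bases before its start. The 4th gene with a match was Stat4, where GAAAGTGAAA lay 97 to 88 bases before the second of its starts. Over all 32851 promoters of the table, 7.02% held TTCNNNGAA in these 250 bases, 5.85% the form with 4 bases between and 2.98% the response element core, against 1, 1 and 3 of the 12 windows here. These matches describe letters only, and binding was not measured.

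Of the 9 genes, 6 were called higher in BCAS mice (Stat2, Stat3, Stat5a, Stat6, Socs1 and Socs3), none was called lower, and Stat5b rose by a log2 fold change below 1. Over all tested genes, 11% were called higher and 1.28% lower, and 12.2% in either direction. At an adjusted p under 0.05 alone, 7 of the 9 were higher and none lower, against 19.2% higher and 12.8% lower, or 32% in either direction, over all tested genes. The median log2 fold change of the 9 genes was 1.15 (quartiles 0.81 and 1.67), against -0.01 over all tested genes (quartiles -0.30 and 0.40). In 6 genes (Stat2, Stat3, Stat5b, Stat6, Socs1 and Socs3) all 4 BCAS mice lay above all 4 Sham mice, a separation in this direction that 18.5% of all tested genes showed. In bulk tissue, fewer cells of a type and less RNA per cell cannot be told apart, and the same holds for more cells and more RNA per cell.

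**Figure D1:**
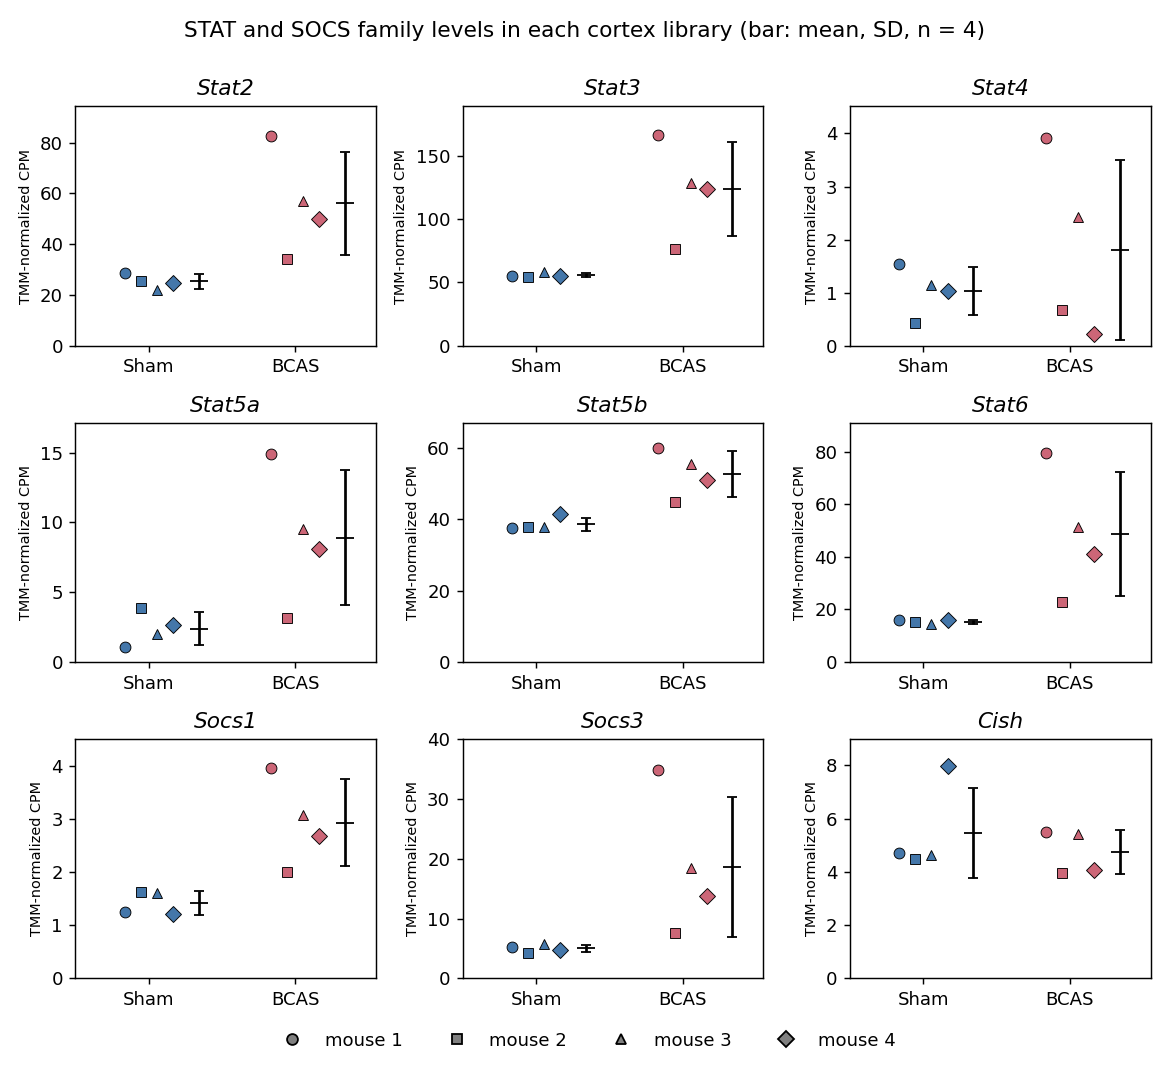
TMM-normalized CPM (vertical axes, from 0) of each of the 9 genes in the 4 Sham (blue) and 4 BCAS (red) libraries. Points are single mice, symbols give the mouse number within its group and pair no animals, and bars are mean ± SD (n = 4). BCAS mouse 1 has the highest BCAS value in every gene, and Stat4, Stat5a and Cish are the genes whose groups overlap.

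Among the STAT genes, Stat2 and Stat3 rose by nearly the same amount. Stat2, which joins IRF9 to drive interferon-stimulated genes, had 28.8, 25.5, 22.1 and 24.9 CPM in Sham mice 1 to 4, against 82.7, 34.4, 57.1 and 50.1 CPM for BCAS mice 1 to 4, and later values follow the same order. The lowest BCAS mouse thus lay above the highest Sham mouse, and BCAS mouse 1 stood well above the other three. Its mean went from 25.3 ± 2.77 to 56.1 ± 20.2 CPM (SD, n = 4), a log2 fold change of 1.15 (SE 0.23, 95% interval 0.62 to 1.68, edgeR adjusted p = 0.00943). Without BCAS mouse 1 the log2 fold change of Stat2 was 0.91, under the required 1, with an edgeR adjusted p of 0.00528.

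Stat3, the main STAT of the interleukin-6 family and of interleukin-10, had 55.0, 54.5, 58.1 and 55.2 CPM across Sham mice against 166, 75.9, 128 and 124 CPM across BCAS mice. The Sham mice were almost level, with an SD of 1.59 CPM around 55.7, whereas the BCAS mice had an SD of 37.0 CPM around 123. The log2 fold change was 1.15 (SE 0.20, 95% interval 0.70 to 1.60, edgeR adjusted p = 0.00527), the smallest adjusted p of the 9 genes. Leaving out BCAS mouse 1 lowered it to 0.98, with an edgeR adjusted p of 0.00363.

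Stat6, which carries the signals of interleukin-4 and interleukin-13, rose more, with 15.9, 15.2, 14.3 and 15.8 CPM across Sham mice against 79.5, 22.9, 51.4 and 41.2 CPM across BCAS mice. Every BCAS mouse lay above the narrow Sham range, and BCAS mouse 2 was closest to it. Its mean went from 15.3 ± 0.742 to 48.8 ± 23.6 CPM (SD, n = 4), a log2 fold change of 1.67 (SE 0.32, 95% interval 0.96 to 2.38, edgeR adjusted p = 0.00722). It was called with each mouse left out in turn, at log2 fold changes of 1.35 to 1.92.

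The paralogs Stat5a and Stat5b, which serve growth hormone, prolactin, interleukin-2 and GM-CSF receptors, started from different levels and rose by different amounts. Stat5b had 37.6, 37.8, 37.7 and 41.4 CPM across Sham mice against 59.8, 44.8, 55.4 and 51.1 CPM across BCAS mice. The groups did not overlap, but the step was small, from 38.6 ± 1.86 to 52.8 ± 6.41 CPM (SD, n = 4), a log2 fold change of 0.45 (SE 0.10, 95% interval 0.23 to 0.68, edgeR adjusted p = 0.0125). Stat5a was far scarcer, with 19, 62, 35 and 44 counts across Sham mice against 339, 61, 176 and 148 counts across BCAS mice, which is 1.08, 3.87, 2.002 and 2.66 CPM against 14.9, 3.14, 9.51 and 8.06 CPM. BCAS mouse 2 lay within the Sham range and the other 3 BCAS mice above it. The mean of Stat5a went from 2.40 ± 1.17 to 8.90 ± 4.84 CPM (SD, n = 4), a log2 fold change of 1.90 (SE 0.50, 95% interval 0.78 to 3.01, edgeR adjusted p = 0.0221). This call was lost without Sham mouse 1, 3 or 4 or BCAS mouse 3, with edgeR adjusted p-values of 0.0608, 0.0551, 0.0574 and 0.0536. Of the summed level of both paralogs per exon length, Stat5a made up 2.18%, 7.37%, 3.96% and 4.74% across Sham mice against 16.2%, 5.17%, 11.8% and 10.9% across BCAS mice. The share was thus above the Sham range in BCAS mice 1, 3 and 4 and within it in BCAS mouse 2.

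Stat4, the STAT of interleukin-12 signaling in T and NK cells, was near the lower end of what these libraries resolve. It had 27, 7, 20 and 17 counts across Sham mice against 89, 13, 45 and 4 counts across BCAS mice, so BCAS mice 1 and 3 were above every Sham mouse and BCAS mouse 4 below every one. Means were 1.04 ± 0.454 CPM in Sham and 1.81 ± 1.70 CPM in BCAS mice (SD, n = 4), a log2 fold change of 0.81 with a 95% interval of -0.86 to 2.47 (SE 0.74, edgeR adjusted p = 0.414). A difference could not be shown at this depth and spread, and without BCAS mouse 1 the log2 fold change was 0.10. The overlap with Gm28177 adds to the uncertainty of this gene.

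Among the feedback genes, Socs1 and Socs3 rose, and Cish did not pass the test. Socs3, which docks on the gp130 receptor chain and blocks its Janus kinases, had 92, 69, 100 and 79 counts across Sham mice against 793, 147, 341 and 253 counts across BCAS mice. These are 5.23, 4.31, 5.72 and 4.77 CPM against 34.9, 7.57, 18.4 and 13.8 CPM. The groups were apart, with BCAS mouse 1 far above the rest. The mean of Socs3 went from 5.01 ± 0.607 to 18.7 ± 11.7 CPM (SD, n = 4), a log2 fold change of 1.90 (SE 0.41, 95% interval 0.98 to 2.82, edgeR adjusted p = 0.0113). It was called with each mouse left out in turn, at log2 fold changes of 1.41 to 2.17.

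Socs1, a direct inhibitor of Janus kinases that limits interferon signaling, was low in the cortex, with 22, 26, 28 and 20 counts across Sham mice against 90, 39, 57 and 49 counts across BCAS mice. In CPM this was 1.25, 1.62, 1.60 and 1.21 against 3.96, 2.01, 3.08 and 2.67, and every BCAS mouse lay above every Sham mouse. The mean went from 1.42 ± 0.222 to 2.93 ± 0.815 CPM (SD, n = 4), a log2 fold change of 1.04 (SE 0.26, 95% interval 0.46 to 1.63, edgeR adjusted p = 0.0193). The fold change of Socs1 stood close to the threshold of 1. With Sham mouse 1, Sham mouse 4 or BCAS mouse 3 left out, the edgeR adjusted p was 0.0617, 0.0596 and 0.0517, and without BCAS mouse 1 the log2 fold change was 0.87. The call was also lost with limma on log2(CPM + 1), where the log2 fold change was 0.68.

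Cish, a classic STAT5 target whose protein occupies activated cytokine receptors, had 4.72, 4.49, 4.63 and 7.97 CPM across Sham mice against 5.49, 3.97, 5.40 and 4.09 CPM across BCAS mice. The groups overlapped, and Sham mouse 4 held the highest value of all 8. Means were 5.45 ± 1.68 and 4.74 ± 0.823 CPM (SD, n = 4), a log2 fold change of -0.20 with a 95% interval of -0.73 to 0.33 (SE 0.24, edgeR adjusted p = 0.532). That interval leaves out a rise of the size fitted for Socs1 or Socs3, but it does not show that Cish was level, and without Sham mouse 4 its log2 fold change was 0.03.

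**Figure D2:**
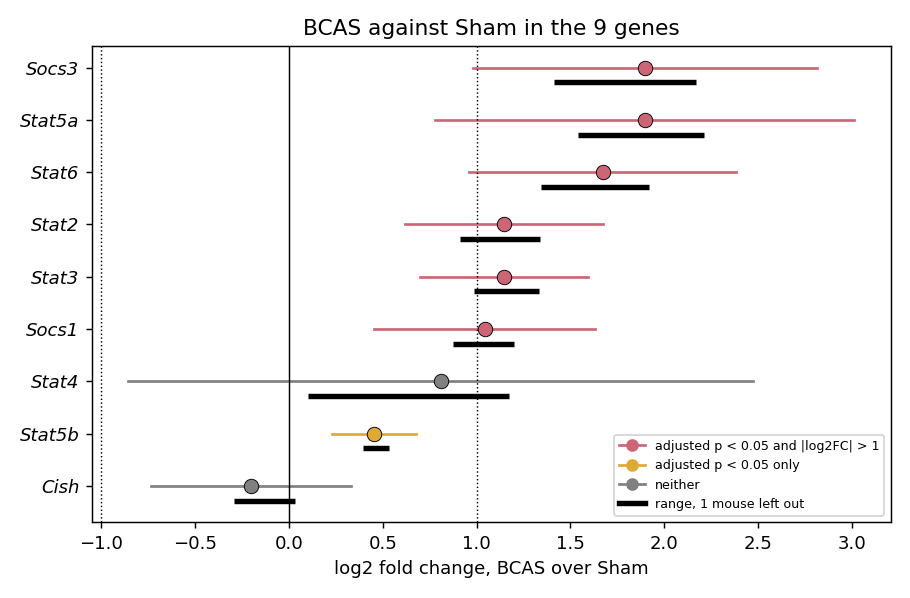
Log2 fold change of BCAS over Sham (horizontal axis) for the 9 genes, with 95% intervals as thin lines and the range with each mouse left out in turn as thick black bars. Dotted lines mark the threshold of 1 in either direction. Socs3 and Stat5a lie at 1.90 and Stat6 at 1.67, while the thick bars of Stat2, Stat3, Stat4 and Socs1 cross the threshold of 1 and that of Cish crosses 0.

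The BCAS mice spread much more than the Sham mice in most of these genes. The SD of log2 CPM between BCAS mice was 11.6 times that between Sham mice for Stat3, 10.6 times for Stat6, 5.28 times for Socs3 and 3.33 times for Stat2. For Cish it was 0.637 times. Over all tested genes the median SD of log2 CPM was also larger in BCAS mice, at 0.273 against 0.159 in Sham mice, and Stat5a and Socs1, at 1.26 and 1.86 times, were less far from this general widening than Stat3 or Stat6. In 8 of the 9 genes the BCAS mice fell in the same order from high to low, mouse 1, 3, 4 and 2, and in Stat4 mice 2 and 4 changed places. With BCAS mouse 1 left out, 3 of the 9 genes were called (Stat5a, Stat6 and Socs3), and all of the 7 genes that had passed kept an edgeR adjusted p under 0.05. In that fit 1532 of all 17372 tested genes were called higher and 112 lower.

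**Figure D3:**
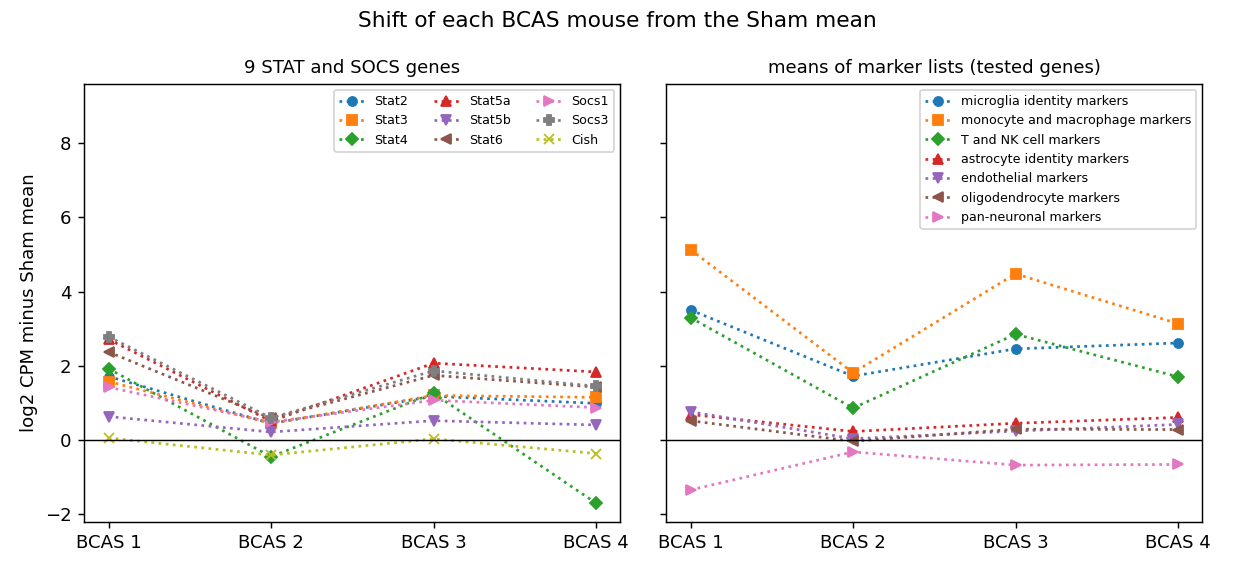
Log2 CPM of each BCAS mouse minus the Sham mean (vertical axis) for the 9 genes (left) and for the mean of the tested genes of each marker list (right). Points are single mice and dotted lines join the points of a gene or list. BCAS mouse 1 is farthest from 0 in every marker list shown, as it is highest in the 9 genes.

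Markers of other cell types moved with the same mice. All 10 microglia identity markers were called higher in BCAS mice, among them Fcrls, Olfml3 and Csf1r, and their summed level was 402 to 482 CPM in Sham and 1588 to 5801 CPM in BCAS mice. Of 10 monocyte and macrophage markers, 8 were tested and all 8 called higher, with sums of 99.3 to 124 and 329 to 2458 CPM. Fn1, at a mean of 83.4 CPM, made up most of the Sham sum, and the paper describes CD68 as high in activated microglia too. Ccr2, Ly6c2 and Ms4a7, at Sham means of 0.73, 0.089 and 0.53 CPM, passed the filter only through the BCAS group. The mean log2 shift of the microglia list was 3.50, 1.72, 2.46 and 2.61 in BCAS mice 1 to 4, and that of the monocyte and macrophage list 5.13, 1.81, 4.48 and 3.13. Mouse 1 was highest and mouse 2 lowest in both, and the second list had the order of mice seen in 8 of the 9 genes. The T and NK cell, B cell and oligodendrocyte lists had this order too, and the pan-neuronal list had its reverse, with mouse 1 lowest. Of 12 T and NK cell markers, 4 had enough counts and 3 of those were called higher (Il2rb, Cd8a and Cd4), while Trbc2 had a log2 fold change of -0.67 and did not pass, with sums of 7.61 to 14.8 and 11.8 to 80.6 CPM. Il2rb had 6, 5, 6 and 6 counts across Sham mice and Cd8a 1, 3, 0 and 2. Both passed the filter only through the BCAS group. Both tested B cell markers of 6, Cd79b and Ighm, were called higher, with sums of 15.8 to 44.1 and 45.1 to 184 CPM, and none of 8 neutrophil markers reached the filter, with sums of 0.437 to 1.08 and 0.927 to 15.7 CPM. Ighm made up most of the B cell sum, at a Sham mean of 32.9 CPM, and Cd79b passed the filter only through the BCAS group. Of 10 astrocyte identity markers, Aqp4 alone was called and 6 had an adjusted p under 0.05, all higher, with sums of 5441 to 6398 and 6357 to 7453 CPM. Among 10 endothelial markers 2 passed the adjusted p, Cdh5 and Pecam1, both higher but not called (sums 314 to 413 and 384 to 571 CPM), and none of 10 oligodendrocyte markers did (4062 to 6487 and 5652 to 8754 CPM). Pan-neuronal markers were lower, 10 of 14 at an adjusted p under 0.05 with Snap25 alone called, and their sum was 14264 to 16732 CPM in Sham and 5886 to 12364 CPM in BCAS mice. The part of these shifts in the results for the STAT and SOCS genes was not tested.

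Levels of different genes were compared per exon length, as TMM-normalized CPM per kilobase of exon (RPKM). This length counts every annotated exon base of a gene, which for Cish is 6419 bases, nearly all of its locus. Where a transcript uses only part of these bases its level per length is understated, so the order holds for this length only. In Sham cortex the order was Stat5b at 6.97, Stat3 at 5.85, Stat2 at 4.27, Stat6 at 3.47, Socs3 at 1.73, Cish at 0.849, Socs1 at 0.488, Stat5a at 0.337 and Stat4 at 0.267 RPKM. Neighbours in this order had ranges that stayed apart from Stat5b down to Socs1, whereas Socs1 and Stat5a overlapped, as did Stat5a and Stat4. In BCAS cortex Stat3 came first at 12.95 RPKM, then Stat6 at 11.1, Stat5b at 9.53, Stat2 at 9.46, Socs3 at 6.45, Stat5a at 1.25, Socs1 at 1.01, Cish at 0.738 and Stat4 at 0.467 RPKM. There all neighbouring ranges overlapped except those of Socs3 and Stat5a. By these ranges the order among the 4 abundant STAT genes was apart in Sham mice and overlapped in BCAS mice, although Stat3 lay above Stat2 within each of the 4 BCAS mice.

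**Figure D4:**
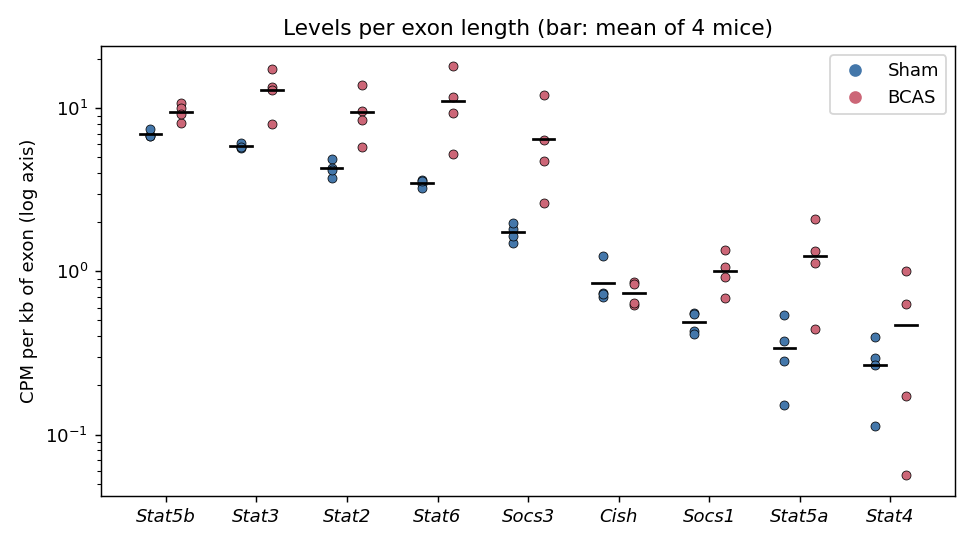
Levels per exon length (CPM per kilobase of exon, logarithmic vertical axis) of the 9 genes, ordered by the Sham mean. Points are single mice (blue Sham, red BCAS) and bars are means of 4 mice. Stat5b, Stat3, Stat2 and Stat6 lead in Sham mice with separate ranges, and the BCAS ranges of these 4 overlap.

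Each feedback gene was also set against a STAT linked to its induction, as the log2 ratio of their levels per exon length within each library. For Socs3 over Stat3 the ratio was -1.67, -1.94, -1.62 and -1.81 across Sham mice against -0.53, -1.61, -1.08 and -1.45 across BCAS mice. The Sham and BCAS values did not overlap, although BCAS mouse 2 lay only just above Sham mouse 3. The mean went from -1.76 ± 0.144 to -1.16 ± 0.477 (SD, n = 4), a difference of 0.60 (exact two-sided permutation test over 70 arrangements, p = 0.0286, the smallest it can give, and 0.0429 adjusted over the 3 ratios). Without BCAS mouse 1 the difference for Socs3 over Stat3 was 0.39.

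For Cish over the sum of Stat5a and Stat5b the ratio was -3.24, -3.39, -3.30 and -2.66 across Sham mice against -3.91, -3.79, -3.75 and -4.02 across BCAS mice. Again the groups did not overlap, in the opposite direction. Here the mean went from -3.15 ± 0.331 to -3.87 ± 0.125 (SD, n = 4), a difference of -0.72 (exact two-sided permutation test, p = 0.0286, adjusted 0.0429), and of -0.56 without Sham mouse 4. For Socs1 over Stat2 the means were -3.14 ± 0.342 and -3.20 ± 0.119 (SD, n = 4), a difference of -0.07 that was smaller than the Sham SD (two-sided exact permutation, p = 0.743, adjusted 0.743).

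Profiles over the 8 libraries were compared by the root-mean-square difference of log2 CPM, each gene taken relative to its Sham mean, as a description without a test. Among the 9 genes the closest pairs were Stat2 with Stat3 at 0.139, Stat3 with Socs1 at 0.172 and Stat6 with Socs3 at 0.200 log2 units. The nearest genes outside the 9 were Lamp1 (0.0767), Aga (0.0780) and Frmd4b (0.0797) for Stat2, the first 2 of which encode lysosomal proteins. For Stat3 they were Ephx1 (0.0571), Tpp1 (0.0598) and Cav1 (0.0609), for Stat6 Rrbp1 (0.0720), Aldh1l2 (0.0756) and Sbno2 (0.0806), and for Socs1 Lpcat3 (0.0757), Swap70 (0.0871) and Tmem100 (0.0893). Casp1 (0.150) and Tgm2 (0.166) were among the 3 nearest to Socs3. For Stat5a, whose Sham mice differed most among the called genes, the nearest genes were farther off, namely Gbp5 (0.338), Samd9l (0.367) and Trim21 (0.378), which are interferon-inducible.

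Upstream of the STATs, 1 of the 4 Janus kinases was called. Jak3, the kinase of the common gamma chain receptors of leukocytes, went from 8.27 ± 0.708 to 36.8 ± 18.4 CPM (SD, n = 4, log2 fold change 2.16, edgeR adjusted p = 0.00318). Tyk2, which serves interferon and interleukin-12 receptors, rose by less (0.87, edgeR adjusted p = 0.0203, and up to 0.0621 without Sham mouse 2 or 4 or BCAS mouse 3), while Jak2 at 0.35 and Jak1 at 0.02 did not pass. Without BCAS mouse 2, Tyk2 was called (1.04, edgeR adjusted p = 0.00165) and Jak2 passed the adjusted p (0.48, edgeR adjusted p = 0.0147). Among 23 receptor chains that couple to STATs, 16 were called higher and none lower, with a median log2 fold change of 1.90. Epor, the erythropoietin receptor, was the 1 chain lower at an adjusted p under 0.05 (log2 fold change -0.75, edgeR adjusted p = 0.0456). Its groups overlapped, with 188, 142, 90 and 114 counts across Sham mice against 81, 97, 87 and 102 counts across BCAS mice. The chains called higher include Csf3r at 4.07, Csf2rb at 4.36, Il10ra at 3.22 and Osmr, the oncostatin M receptor, at 3.08. Of 19 cytokines that act through STATs, only 6 had enough counts to be tested, and Osm, Clcf1, Il15 and Lif were called higher. The other 2 tested, Il4 and Il12a, had log2 fold changes of -0.39 and -1.38 and did not pass (edgeR adjusted p = 0.0538 and 0.0696). The call of Lif was lost without Sham mouse 1, 2 or 4 or BCAS mouse 1 or 3, with edgeR adjusted p-values of 0.0511 to 0.0749, and with limma on log2(CPM + 1), where its log2 fold change was 0.92. Osm, which encodes the ligand of Osmr, went from 0.0586 ± 0.0677 to 1.99 ± 1.68 CPM and Clcf1 from 1.21 ± 0.500 to 7.29 ± 3.95 CPM (SD, n = 4). Ifnb1 and Il10, named here after their values were seen, had no count in any library, which allows up to 0.187 CPM in the smallest one.

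Inhibitors other than the 3 genes above moved unevenly. Of 5 other SOCS family genes none was called, and Socs4 and Socs6 rose by a log2 fold change under 1 (0.63 and 0.71) while Socs7 fell by 0.39 on the log2 scale. The edgeR adjusted p of Socs7 was 0.0233, and up to 0.0647 without Sham mouse 1, 2 or 4 or BCAS mouse 3 or 4. Of 10 further inhibitors of the pathway, Usp18 and Ptpn6 were called higher, at log2 fold changes of 3.69 and 4.06. USP18 holds back type I interferon receptors, and PTPN6 is a phosphatase of blood and myeloid cells. Ptpn1 and Sh2b3 rose by 0.83 and 0.77, and the median of the 10 was 0.04. Neither passed with Sham mouse 2, Sham mouse 4 or BCAS mouse 3 left out, Ptpn1 also not without Sham mouse 1 and Sh2b3 not without Sham mouse 3, with edgeR adjusted p-values of up to 0.0581 and 0.0676.

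Downstream, lists of genes known to respond to each STAT differed in how many were called. All 12 STAT2-IRF9 target genes were called higher, with a median log2 fold change of 3.49, among them Mx1 at 5.70, Usp18 at 3.69, Ifi44 at 3.65 and Ifit1 at 3.34. Of those named, Mx1, with 1, 4, 4 and 8 counts across Sham mice, passed the filter only through the BCAS group. Of 16 STAT3-linked genes 14 were called higher, with a median of 3.12, among them Serpina3n at 4.76, Cd44 at 4.21 and Gfap, the intermediate filament of reactive astrocytes, at 3.90. Both medians exceed the 1.15 of the STAT2 and STAT3 transcripts themselves. Of 10 STAT5-linked genes 9 were tested and 3 called higher, namely Ccnd1, Igf1 and Osm, with a median of 0.68. As said above, Osm passed the filter only through the BCAS group. Ccnd1, at 1.06, was no longer called without BCAS mouse 1, where its log2 fold change was 0.85. Among 10 STAT6-linked genes only 4 had enough counts, of which Il4ra, a receptor chain for interleukin-4, at 2.62 and the mannose receptor gene Mrc1 at 1.78 were called. Of 8 STAT4-linked genes only 3 had enough counts to be tested, and none of these was called, although Furin passed the adjusted p at 0.71. The untested ones include genes of T and NK cells that were near 0 in Sham mice but not in all BCAS mice, given here after their values were seen. Il18r1 had 1, 1, 0 and 0 counts across Sham mice against 242, 1, 141 and 42 counts across BCAS mice. For Il18rap the counts were 2, 1, 1 and 3 against 262, 7, 116 and 31. The cytotoxic genes Prf1 and Gzmb had at most 2 counts in a Sham library and 3 to 32 and 5 to 60 counts in the BCAS libraries. BCAS mouse 2 was the lowest BCAS mouse in these 4 genes, and they were not tested. Most of the genes on these lists respond to other factors as well, several stand on more than 1 list, and the lists were compared with all tested genes only by their counts and medians.

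**Figure D5:**
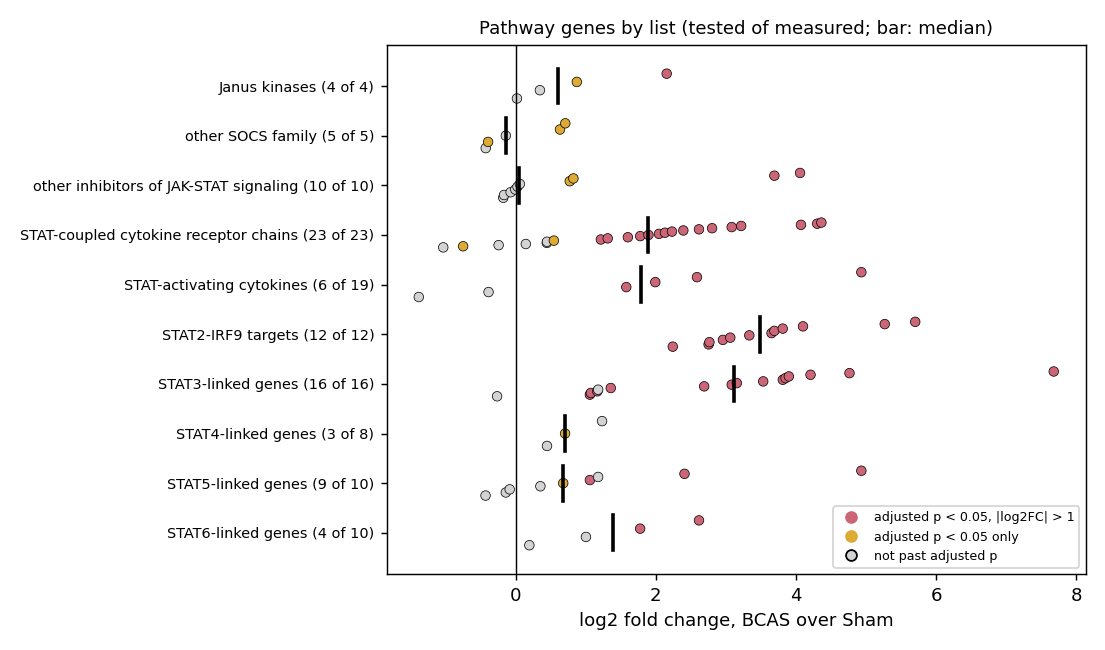
Log2 fold change of BCAS over Sham (horizontal axis) for the tested genes of 10 lists around the STAT pathway, with the number tested of those measured after each name. Points are genes, coloured by call, and vertical bars are list medians. All STAT2-IRF9 targets and most STAT3-linked genes and receptor chains lie beyond 1, whereas the other SOCS genes lie between -1 and 1.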

How the data were processed

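Total RNA of the right cerebral cortex was sequenced from 4 Sham and 4 BCAS mice, 1 per library, grouped by the labels. According to the methods and labels, the authors trimmed paired reads (Trim Galore), aligned them to mm10 with HISAT2, sorted them with SAMtools 1.9 and counted pairs on exons with featureCounts. The authors deposited these counts per gene without normalization. The table header names featureCounts 2.0.1 and GENCODE vM20 without a strand option, whereas the labels name version 1.6.3. The authors' DESeq2 1.16.1 step was not used here.

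Here, counts from 16759364 to 21794435 per library were scaled by TMM and tested with edgeR 4.0.16 (R 4.3.3, limma 3.58.1) after filterByExpr (minimum count 10, minimum total 15), with the quasi-likelihood F-test, no covariates and Benjamini-Hochberg adjustment over 17136 genes. The table was fitted whole, and the procedure was tested on simulated data. For ratios an exact permutation test (two-sided p as double the one-sided p, over libraries) was used. Log2 CPM for profiles had a prior count of 2. Alternatives were DESeq2's size factors, upper-quartile scaling, library size alone, no filter, 10 counts in every library, limma-voom, DESeq2 1.42.0, robust edgeR, limma on log2(CPM + 1), a replicate block, and each mouse left out.

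The 9 genes, the lists and the ratios were chosen with earlier results of these data known. Genes named beyond the 9 are up to 4 per list with the smallest p and, for each called gene, the 3 nearest in profile with a mean of at least 5 CPM. Other genes were named after their values were seen. Some items are not reported here. Promoters are from RefSeq (all 9 genes matched), exon overlaps from GENCODE vM20 and shared 100-base stretches from GENCODE vM21 transcripts. Python 3.11.15 with matplotlib 3.10.9 drew the figures.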

Additional observations from a re-analysis of the deposited data

Results flagged for a closer look

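In 2 of the 24 groups of 4 values examined, 1 sample stood apart from the others, with a gap to its nearest neighbour over 0.829 of the group's range. Chance gives about 1 such group in 20. Both were the same library, Sham mouse 4, which had 41.4 CPM of Stat5b (gap 0.951 of the range), above the 37.6 to 37.8 CPM of the other Sham mice, and 7.97 CPM of Cish (gap 0.936 of the range), above their 4.49 to 4.72 CPM. Without this mouse the log2 fold change was 0.48 for Stat5b and 0.03 for Cish (edgeR adjusted p = 0.0318 and 0.916).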

How the results depend on the processing

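Stat2, Stat3, Stat5b, Stat6 and Socs3 kept their direction and an adjusted p under 0.05 in all 18 alternatives, and Stat4 passed in none of the 17 that kept it, since the filter of 10 counts in every library removed it. The number of the 9 genes called ranged from 3 (without BCAS mouse 1) to 6 with a mouse left out, was 5 with limma on log2(CPM + 1), where Socs1 had a log2 fold change of 0.68, and 6 in the other alternatives but the block. The labels do not say whether mice of equal number belong together. Correlations of same-numbered deviations were between -0.103 and 0.0013 and those of other pairs between -0.112 and 0.125. These values cannot exclude a shared batch. With the replicate block 4 were called, as Stat5a (log2 fold change 1.81, edgeR adjusted p = 0.0792) and Socs1 (1.02, edgeR adjusted p = 0.0556) lost significance. Over all 17136 tested genes, 1809 were called with the block and 1583 with limma on log2(CPM + 1). With each mouse left out, the log2 fold change ranged from 1.54 to 2.21 for Stat5a and from 0.87 to 1.20 for Socs1. Cish ranged from -0.29 to 0.032, its sign turning without Sham mouse 4. The difference in ratios ranged from 0.39 to 0.75 for log2 Socs3 over Stat3 and from -0.804 to -0.559 for log2 Cish over Stat5a plus Stat5b, where the exact permutation p, taken as double the one-sided p, was 0.0571 in each case, the smallest that this definition allows for 3 against 4 mice, and that of log2 Socs1 over Stat2 ranged from -0.19 to 0.057, turning without Sham mouse 3. Among genes that did not pass, Jak1 ranged from -0.025 to 0.066 (sign turned without Sham mouse 3 or 4 or BCAS mouse 3), Tbx21 from -0.21 to 2.49 (without BCAS mouse 1) and Fcer2a from -0.22 to 0.48 (without Sham mouse 4 or BCAS mouse 1). The cause of these changes was not tested. Over all genes, 5490 passed on the adjusted p alone, against 2097 called, and the called number ranged from 1644 to 2967 with a mouse left out. Counts per library ranged from 4 to 89 for Stat4, from 20 to 90 for Socs1 and from 19 to 339 for Stat5a, so relative counting error is largest in these genes.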
